A study of Rattus norvegicus with 18 samples.

Results

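Genes of the interferon response, Irf1, Irf7, Irf9, Stat2, Ifit2, Ifit3, Mx1, Mx2 and Isg15 (9 in all), were followed in the rat brain across amounts of paradoxical (rapid eye movement) sleep. They were read through every probe set that the platform annotation assigns to 1 of these symbols, 13 of the 31099 probe sets on the array, or 9 of the 14218 genes it names. Of the 13, 12 probe sets for 8 genes passed a filter that left out the dimmest 40% of probe sets. The single probe set of Ifit3 had a mean signal of 13.3, below the filter level of 19.7, and was described but not tested.

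The samples came from male Sprague-Dawley rats of 260 to 300 g with implanted electrodes for recording sleep, without any genetic change. Controls remained in their home cages. Deprived rats were kept from paradoxical sleep for 78 h on platforms over water (the flowerpot method), and recovery rats had 72 h on the platforms and then 6 h in which sleep was allowed, as the source names of the samples give it. The treatment protocol can also be read as 78 h of deprivation before the 6 h, so whether the recovery rats were deprived for as long as the deprived rats is not settled by these sources. There were 12 rats per state, split into 2 sets of 6. RNA from each dissected structure (right side) was combined within a set. The 18 arrays thus measured 12 pools, n = 2 pools in each of 6 groups: set 1 was hybridised on 2 arrays per pool, which were averaged, and set 2 on 1. A pool hides the spread between its 6 rats, platform rats differ from home cage rats in more than their sleep, and the number of arrays limits the precision.

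Interferons are cytokines that cells release on viral infection. Type I interferons act through their receptor and the kinases Jak1 and Tyk2 on Stat2, which acts with Irf9 in a complex that binds the interferon-stimulated response element (ISRE) of target genes. Interferon gamma acts mainly on another element, the gamma-activated site (GAS), found at genes such as Irf1. Irf7 is induced by this signalling and in turn drives interferon alpha genes. Ifit2 and Ifit3 act against viral RNA and its translation, Mx1 and Mx2 are dynamin-like GTPases that block viruses, and Isg15 is a ubiquitin-like protein attached to other proteins. In the uninfected brain, microglia and endothelial cells are among the cells that express many of these genes at a low basal level.

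The promoters of 6 of the 9 genes were in the RefSeq table (build GRCr8), and the 250 bases before the start site were searched on both strands for both elements, because they are the elements of the 2 arms of the pathway. The ISRE letters (GAAA, any 2 bases, GAAA) were found at Irf7 and Ifit3 and in 3.41% of 33469 promoters. The GAS letters TTCNNNGAA were found at Irf1 and Irf9 and in 7.67% of them, and the matches of the 2 motifs did not overlap. Stat2 and Mx1 had neither run of letters in this window. The stretches around 3 of the matches, in capitals, are shown because they hold the elements that the background above names.
Irf7, chr1:205800073-205800102, minus strand, ISRE 60 to 69 bases upstream: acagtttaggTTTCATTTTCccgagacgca
Ifit3, chr1:241527236-241527325, plus strand, ISRE 35 to 44 bases upstream: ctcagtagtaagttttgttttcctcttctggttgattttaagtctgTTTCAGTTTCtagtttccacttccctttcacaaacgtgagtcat
Irf1, chr10:38417753-38417842, plus strand, GAS 134 to 142 bases upstream: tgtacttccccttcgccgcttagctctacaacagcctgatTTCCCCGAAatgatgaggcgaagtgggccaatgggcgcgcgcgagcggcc
A match describes the letters and does not show that a factor binds there. Ifit2 and Ifit3 are neighbours on chromosome 1 with 0 genes between them, and Mx1 and Mx2 lie on chromosome 11 with 1 gene, Fam3b, between them.

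All 13 probe sets were dim to middling on the array, between the 33rd and the 65th percentile of mean signal. The hippocampal pools of set 2 stood apart from those of set 1: on the first principal component (48.3% of the variance) they lay at 0.30 to 10.01, set 1 at 37.9 to 46.6 and all neocortical pools below 0. Their summed signal of 12 neocortical neuron markers was 4437 to 4641, against 3707 to 3801 in set 1 and 5285 to 5704 in the neocortex. Of these 12 markers, 7 were lower in the hippocampal formation (6 called) and 5 higher (2 called, Crym and Bcl11b), so the sum does not speak for each of them. The 9 tested hippocampal neuron markers were all higher in the hippocampal formation (median log2 difference 2.03), as the tissue labels say. Because the 2 sets stood apart, differences are given for each set as well as together.

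**Figure D1:**
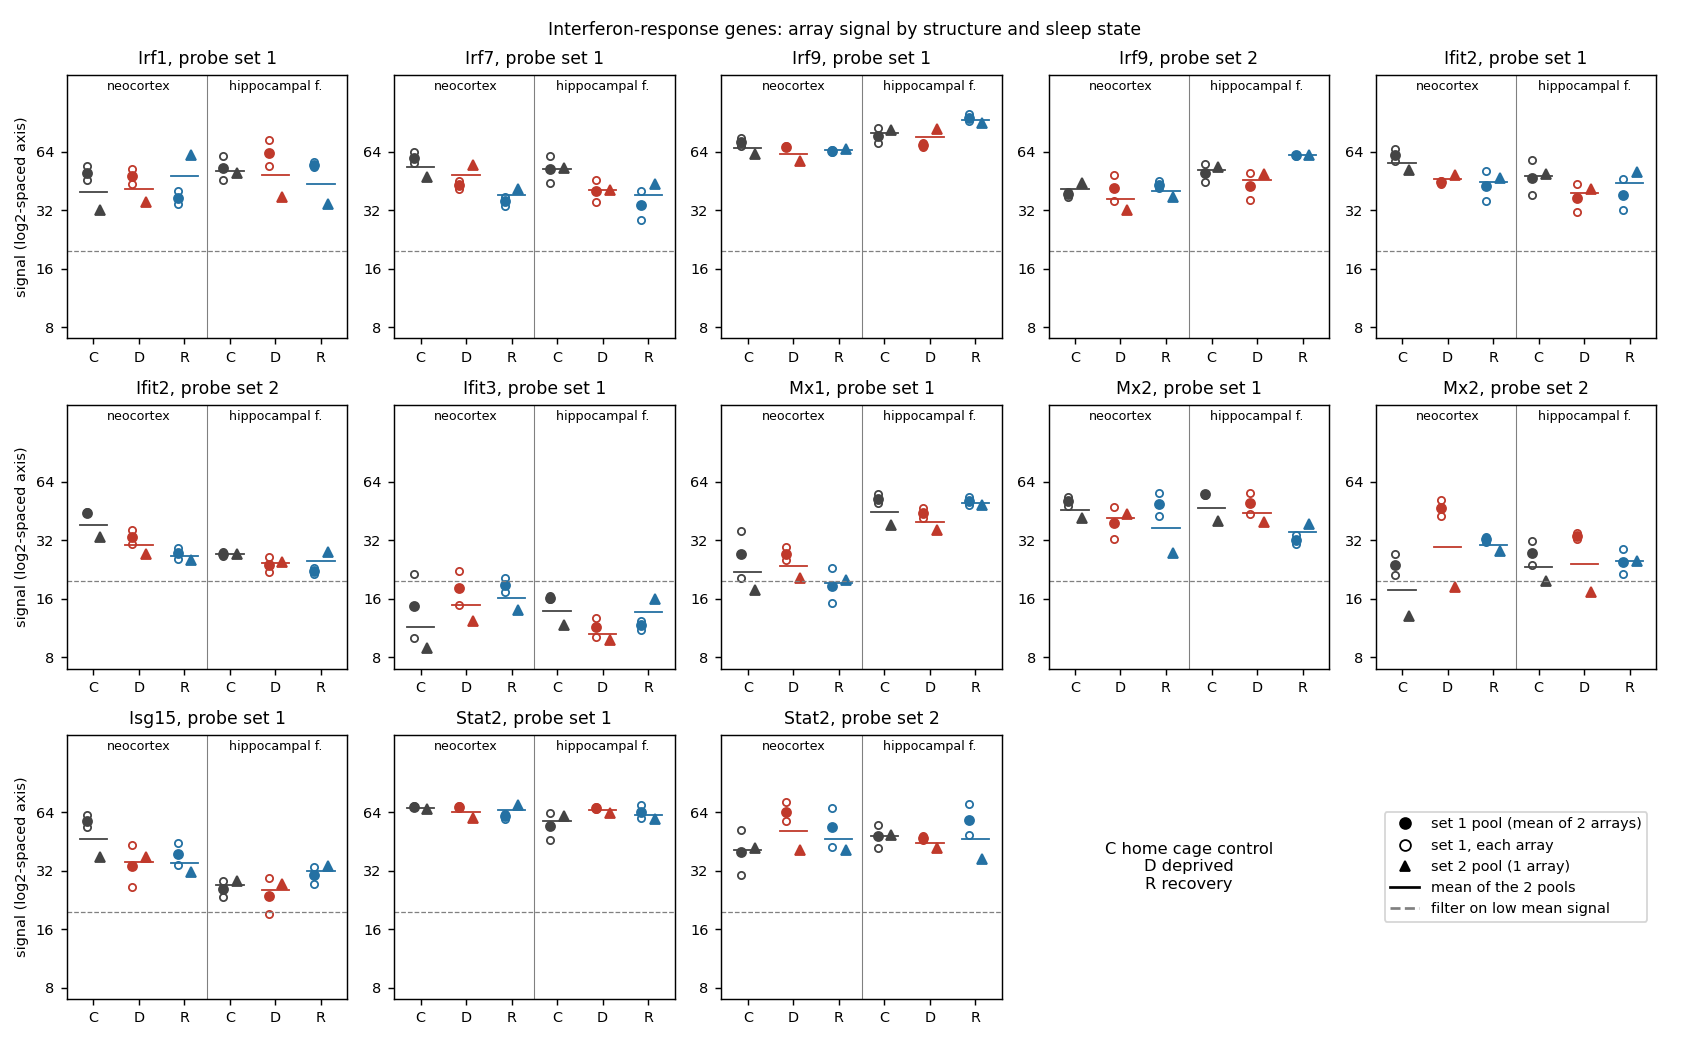
Signal of the 13 probe sets in every pool, on a log2-spaced axis, by structure and sleep state. Filled circles are set 1 pools, open circles their 2 arrays, triangles set 2 pools and bars the mean of the 2 pools. Mx1 is the gene whose hippocampal pools all lie above all neocortical pools by a wide gap.

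Mx1, a GTPase named for resistance to myxoviruses, was higher in the hippocampal formation than in the neocortex in all 6 animal pools. Neocortical Mx1 signal was 27.2 and 17.8 in the control pools of set 1 and set 2, 27.4 and 20.4 in the deprived pools and 18.7 and 20 in the recovery pools. Hippocampal Mx1 signal was 52.5 and 38.5 in control, 44.3 and 36.0 in deprived and 51.1 and 48.9 in recovery pools. The lowest hippocampal pool therefore lay above the highest neocortical pool in every state. The difference was 1.05 on the log2 scale (SE 0.106, 95% interval 0.80 to 1.30, n = 6 animal pools), or 2.07-fold, with adjusted p = 0.000835 (limma on the differences within animal pools, Benjamini-Hochberg over 18625 probe sets). It was 1.03 in set 1 and 1.07 in set 2. Of all probe sets tested, 19.9% were called in this comparison, 9.4% higher and 10.5% lower in the hippocampal formation. Neocortical Mx1 lay near the filter level, so its own value there is close to the low end of what was tested.

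Irf9, the DNA-binding subunit of the complex it forms with Stat2, was the other gene called between the structures, with both of its probe sets higher in the hippocampal formation. Neocortical Irf9 signal was 72.0 and 62.3 in control, 67.8 and 57.3 in deprived and 64.8 and 66.3 in recovery pools. Hippocampal Irf9 signal was 77.5 and 83.2 in control, 69.4 and 83.7 in deprived and 95.9 and 90.5 in recovery pools. The set 1 deprived pool, at 69.4, lay below the highest neocortical pool, and the pool of the same rats was higher in the hippocampal formation in 6 of 6 cases. The difference was 0.35 (SE 0.0963, 95% interval 0.13 to 0.58, limma adjusted p = 0.0428), with 0.23 in set 1 and 0.47 in set 2. The second probe set gave 0.41 (SE 0.108, 95% interval 0.16 to 0.67, limma adjusted p = 0.0376), with 0.30 in set 1 and 0.53 in set 2. All 6 animal pools were higher for it too, against 14.3% of probe sets with 6 of 6 pools higher. These calls are weaker than that of Mx1: leaving out any 1 animal pool took the first probe set above the threshold (adjusted p 0.0518 to 0.156), and every one but the set 1 deprived pool took the second (0.0573 to 0.116).

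The second probe set of Irf9 read 38.7 and 44.3 in neocortical control, 41.6 and 32.2 in deprived and 43.3 and 37.6 in recovery pools. In the hippocampal formation it read 49.6 and 53.6, 42.5 and 49.0, and 61.3 and 61.5 in the same order. Both probe sets thus put the recovery pools highest in the hippocampal formation, without overlap with control or deprived pools. For recovery minus deprived in that structure the log2 difference was 0.29 (SE 0.151) and 0.43 (SE 0.179), with unadjusted p = 0.0856 and 0.0386 and limma adjusted p = 1.0 for both. The test did not call either.

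Stat2, the partner that takes the interferon signal from the receptor, stayed in a narrow band. Neocortical Stat2 signal was 68.3 and 66.5 in control, 68.1 and 59.8 in deprived and 61.0 and 70.1 in recovery pools. Hippocampal Stat2 signal was 54.1 and 61.0, 67.4 and 63.6, and 64.5 and 59.1 in the same order. The ranges of the structures overlapped, and the difference was -0.09 (SE 0.0857, 95% interval -0.29 to 0.11, limma adjusted p = 0.467). In the hippocampal formation both deprived pools lay above both control pools, by 0.19 (SE 0.145, 95% interval -0.13 to 0.51, limma adjusted p = 1.0). The second probe set ranged from 36.7 to 64.3 and had its deprived pools below control there, by -0.13. The 2 Stat2 probe sets thus disagreed, with a correlation of 0.081 over the 12 pools after each structure's mean was removed.

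Irf1, the factor induced through the gamma-activated site, varied more between the sets than between the states. Neocortical Irf1 signal was 49.98 and 31.9 in control, 47.8 and 35.2 in deprived and 37.04 and 61.8 in recovery pools. Hippocampal Irf1 signal was 52.6 and 49.9, 63.0 and 37.3, and 55.0 and 34.3 in the same order. In the neocortex the recovery minus control difference was -0.43 in set 1 and 0.95 in set 2. The mean difference, 0.26 (SE 0.362, 95% interval -0.55 to 1.07), lay within that spread, and no neighbouring groups in the order of Irf1 levels were apart by more than their pooled SD. The difference between structures was 0.15 (SE 0.189, 95% interval -0.29 to 0.60, limma adjusted p = 0.586), and it turned sign in 1 of 14 alternatives.

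Irf7, whose promoter carries the element shown above, had its lowest mean in the recovery pools and its highest in the control pools of both structures. Neocortical Irf7 signal was 59.5 and 47.7 in control, 43.4 and 54.7 in deprived and 35.5 and 41.3 in recovery pools. Hippocampal Irf7 signal was 52.1 and 52.5 in control, 40.2 and 40.7 in deprived and 33.9 and 43.7 in recovery pools. In each structure the recovery pools lay below both control pools, and in the hippocampal formation the deprived pools did as well. Recovery minus control was -0.48 (SE 0.197, 95% interval -0.92 to -0.04) in the neocortex and -0.44 (SE 0.197, 95% interval -0.88 to -0.003) in the hippocampal formation. Unadjusted p was 0.0364 and 0.0487, and the limma adjusted p was 1.0 for both, so neither difference passed over the whole array. Both structures come from the same rats, so these are not independent measurements. Between the structures Irf7 differed by -0.10 (SE 0.100, 95% interval -0.33 to 0.14, limma adjusted p = 0.519).

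Ifit2, an RNA-directed antiviral effector, showed its highest signal in the neocortical control pools with both probe sets. Neocortical Ifit2 signal was 61.7 and 51.4 in control, 44.5 and 48.8 in deprived and 42.6 and 46.7 in recovery pools. Hippocampal Ifit2 signal was 47.1 and 48.9, 36.98 and 41.3, and 38.5 and 50.4 in the same order. In the neocortex no deprived or recovery pool reached a control pool. The differences from control were -0.27 (SE 0.180) after deprivation and -0.34 (SE 0.180) after recovery. The second probe set read 44.5 and 33.5, 33.4 and 27.3, and 27.4 and 25.5 there, which is -0.54 (SE 0.215, unadjusted p = 0.0301) for recovery. Neither probe set was called (limma adjusted p = 1.0), and the 2 probe sets correlated at 0.78 over the 12 centred pools. Between the structures Ifit2 was lower in 5 of 6 hippocampal pools with both probe sets, by -0.17 (SE 0.0951) and -0.30 (SE 0.131), not called (limma adjusted p 0.245 and 0.151).

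Ifit3, the neighbour of Ifit2, was too dim to test. Its signal was 14.7 and 8.9 in neocortical control, 18.1 and 12.3 in deprived and 18.8 and 14.0 in recovery pools. In the hippocampal formation it was 16.2 and 11.8, 11.4 and 9.8, and 11.7 and 15.9 in the same order. The 2 arrays of 1 pool differed by up to 1.09 on the log2 scale at this level. The largest difference between the means of 2 states was 0.50.

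Isg15 was higher in the neocortical than in the hippocampal pool of the same rats in 5 of 6 cases, without passing the test. Neocortical Isg15 signal was 57.7 and 37.7 in control, 33.9 and 37.4 in deprived and 39.0 and 31.3 in recovery pools. Hippocampal Isg15 signal was 25.6 and 28.4, 23.7 and 27.3, and 30.3 and 33.7 in the same order. The hippocampal formation minus neocortex difference was -0.47 (SE 0.139, 95% interval -0.80 to -0.14, limma adjusted p = 0.0552), with -0.69 in set 1 and -0.25 in set 2. With the set of rats as a block the adjusted p was 0.00651, and without the set 2 control pool it was 0.0242. The set 1 control pool of the neocortex, at 57.7, stood highest of all 12 pools, and without its rats the difference was -0.34 (adjusted p 0.178).

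Mx2, the second GTPase, was not called between structures (limma adjusted p = 0.925), and its probe sets disagreed. Neocortical Mx2 signal was 50.9 and 41.6 in control, 39.3 and 44.0 in deprived and 49.2 and 27.7 in recovery pools. Hippocampal Mx2 signal was 55.2 and 40.3, 49.7 and 39.8, and 32.3 and 39.0 in the same order. The structure difference was 0.03 (SE 0.158, 95% interval -0.35 to 0.40). The second probe set ran from 13.1 to 46.8, was above control in both neocortical states (0.73 and 0.77, SE 0.471), and correlated with the first at 0.057. Mx1 and Mx2 are related genes, as are Ifit2 and Ifit3. Probe sequences were not compared, so whether a probe set also reads the related gene was not examined. That holds for the Mx1 values above as well.

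Ordered by mean level, 11 of the 65 steps between neighbouring groups were wider than the pooled SD of those groups. At least 1 such step was found for 6 of the 9 genes (8 of the 13 probe sets). Each of these SDs rests on 2 groups of 2 pools, and the share of such steps over all probe sets was not counted. The steps are thus descriptions and not calls. For Mx1 the single gap wider than that SD, 0.76 on the log2 scale, lay between the deprived neocortex and the deprived hippocampal formation, so its 3 neocortical groups and its 3 hippocampal groups each held together. For Irf7 it lay between the deprived hippocampal formation and the deprived neocortex (0.27). For the first Irf9 probe set such gaps stood between the neocortical control and the deprived hippocampal groups (0.19) and below the hippocampal recovery group (0.21). The second Irf9 probe set had them between the deprived and control hippocampal groups (0.18) and below the hippocampal recovery group (0.25). Both Ifit2 probe sets had one below the neocortical control group (0.23 and 0.35), and the second Stat2 probe set had one just above its lowest group, the neocortical control (0.12). For Isg15 they stood between the hippocampal control and recovery groups (0.24) and below the neocortical control group (0.39). Irf1, Ifit3, both Mx2 probe sets and the first Stat2 probe set had no such gap.

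**Figure D2:**
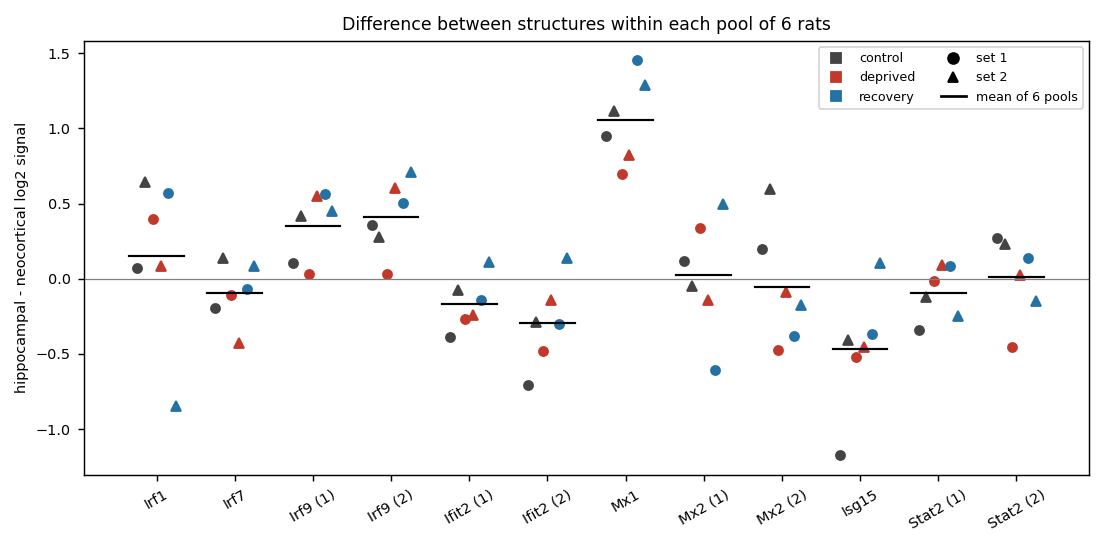
Hippocampal minus neocortical log2 signal within each pool of 6 rats for the 12 tested probe sets, with bars for the mean of the 6 pools. Mx1 lies above 0 in all pools by at least 0.70, both Irf9 probe sets lie above 0 in all pools, and Isg15 lies below 0 in 5 of 6.

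Against the home cage, none of the 8 tested genes changed in either structure at an adjusted p under 0.05 (limma). Over all 18625 probe sets the count was also 0 (0.0%) in each of the 6 comparisons of states, with 207, 209, 169, 204, 282 and 301 probe sets at an unadjusted p under 0.05. The order is deprived minus control, recovery minus control and recovery minus deprived, first in the neocortex, and the counts are 1.11%, 1.12%, 0.907%, 1.1%, 1.51% and 1.62% of the array. At that unadjusted level the 12 member probe sets gave 0, 2, 0, 0, 1 and 1. In the neocortex 6 of the 8 genes had a mean below control after deprivation (median log2 difference -0.12, where 47.5% of all probe sets did and their median was 0.009) and 7 after recovery (median -0.25, against 49.8% of all probe sets). In the hippocampal formation 7 lay below control after deprivation (median -0.09, against 48.8% of all) and 4 after recovery (median -0.009, against 48.1%).

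The neocortical shift differed between the sets. In set 1, 7 genes lay below control after deprivation and 8 after recovery, with medians of -0.23 and -0.48. In set 2, 4 of 8 did in each comparison, with medians of 0.03 and -0.03. The mean z-score of the 8 genes was 1.32 in the set 1 control pool of the neocortex and between -0.54 and 0.18 in the 11 other pools. Of all probe sets, 46.4% to 51% lay below control in these set-wise comparisons.

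Pools of 2 states did not overlap for few of the genes. After deprivation 2 neocortical genes (Ifit2 and Isg15) had both pools below control, where 11.4% of all probe sets did, and 0 had both above (13.1%). After recovery 2 did (Irf7 and Ifit2, background 12.1%) and 0 lay above (11.9%). In the hippocampal formation 2 genes lay below after deprivation (Irf7 and Ifit2, background 9.33%) and 1 above (Stat2, background 10%). After recovery 2 lay below (Irf7 and Mx2, background 9.87%) and 2 above (Irf9 and Isg15, background 10%). Between recovery and deprived pools, 2 neocortical genes lay below (Irf7 and Mx1, background 12.5%) and 0 above (10.9%), and 1 hippocampal gene lay below (Mx2, background 11.4%) and 3 above (Irf9, Mx1 and Isg15, background 11.8%). Those counts take 1 probe set a gene, while the backgrounds are shares of probe sets. Over the 12 tested probe sets, 3, 3, 2, 5, 2 and 1 lay below and 0, 1, 0, 1, 3 and 4 above. The order is that of the 6 comparisons above. They include the second Mx2 probe set above control after recovery in the neocortex. In the deprived hippocampal formation the second Stat2 and Irf9 probe sets lay below control. By gene, Irf7 was on the low side in 4 of these 6 comparisons and Ifit2 in 3. These comparisons share their control or deprived pools.

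**Figure D3:**
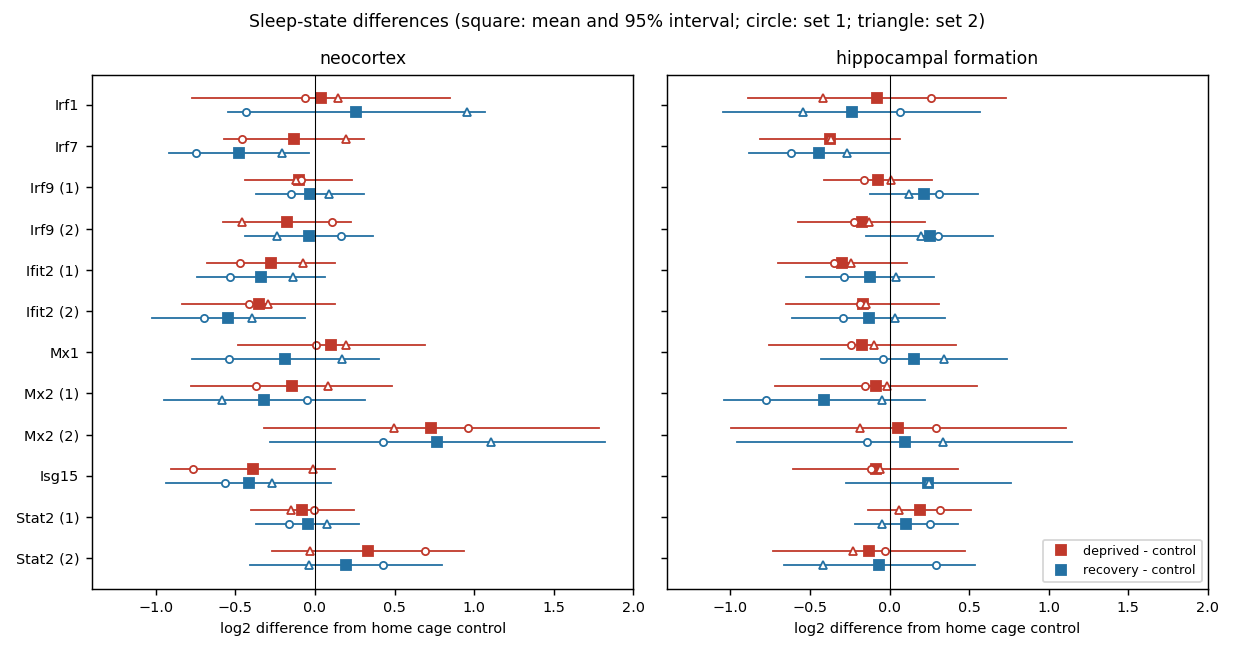
Log2 difference from home cage control for the 12 tested probe sets in each structure, with the mean (square), its 95% interval, and the difference within set 1 (circle) and set 2 (triangle). Most intervals span 0, and those of Irf7 after recovery in both structures and of the second Ifit2 probe set after recovery in the neocortex end just below it.

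The repeatability of a single array can be read from the set 1 pools, which had 2 arrays each. The 2 arrays of a set 1 pool differed by a median of 0.25 on the log2 scale for the 12 member probe sets (0.06 to 0.50), against 0.16 for all kept probe sets. By gene, that median was lowest for the first Stat2 probe set (0.06) and highest for the first Ifit2 probe set (0.50). A difference between states compares means over 2 pools and 3 arrays a group, so it is not on the same footing as a difference between single arrays, and the SE of each fit is its measure of error.

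The difference between states was also compared between structures, and 0 member probe sets (and 0.0% of all) passed (limma adjusted p of 1.0 throughout), with 213 (1.14%), 243 (1.3%) and 298 (1.6%) probe sets at an unadjusted p under 0.05 for deprivation, recovery and recovery against deprivation. The largest such differences among the tested members were those of the second Mx2 probe set, -0.68 for deprivation and -0.67 for recovery (SE 0.326 for both, unadjusted p = 0.0756 and 0.0773). Isg15 followed with 0.66 after recovery (SE 0.341, unadjusted p = 0.0933), from -0.42 in the neocortex and 0.24 in the hippocampal formation. For Mx1, recovery against deprivation gave 0.61 (SE 0.261, unadjusted p = 0.0504). The untested Ifit3 gave -0.77 for deprivation.

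Beyond the 9 genes, no gene of the interferon pathway was called across sleep states. The genes tested were 5 ligands and receptors, 10 JAK-STAT and IRF genes, 7 nucleic acid sensors and adaptors, 29 stimulated effectors, 14 antigen processing and MHC genes and 14 feedback inhibitors. Of 16 listed ligands and receptors, 9 were on the array and 4 of those were below the filter. Effectors lay below control for 20 of 29 in the deprived neocortex (median -0.11) and 24 of 29 in the deprived hippocampal formation (median -0.15), where 47.5% and 48.8% of all probe sets did. In the hippocampal formation 19 of 29 lay higher after recovery than after deprivation (median 0.08, against 49.8% of all probe sets). Antigen processing genes lay below control for 12 of 14 in the deprived hippocampal formation (median -0.16).

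Rsad2, which makes an antiviral nucleotide, had the smallest p of the neocortical effectors, -0.75 for recovery against control (SE 0.282, unadjusted p = 0.0249, limma adjusted p = 1.0). Usp18, an enzyme that removes Isg15 from proteins and damps receptor signalling, read -0.69 in the same comparison (SE 0.310, limma adjusted p = 1.0). Psmb9, an immunoproteasome subunit, read -0.52 in the deprived hippocampal formation (SE 0.230), and Lgals9 -0.40 (SE 0.165), neither called. Pml, a nuclear body protein, read 0.57 (SE 0.236) for recovery against deprived in the hippocampal formation, and Nmi read 0.57 (SE 0.257) for the same in the neocortex, neither called.

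**Figure D4:**
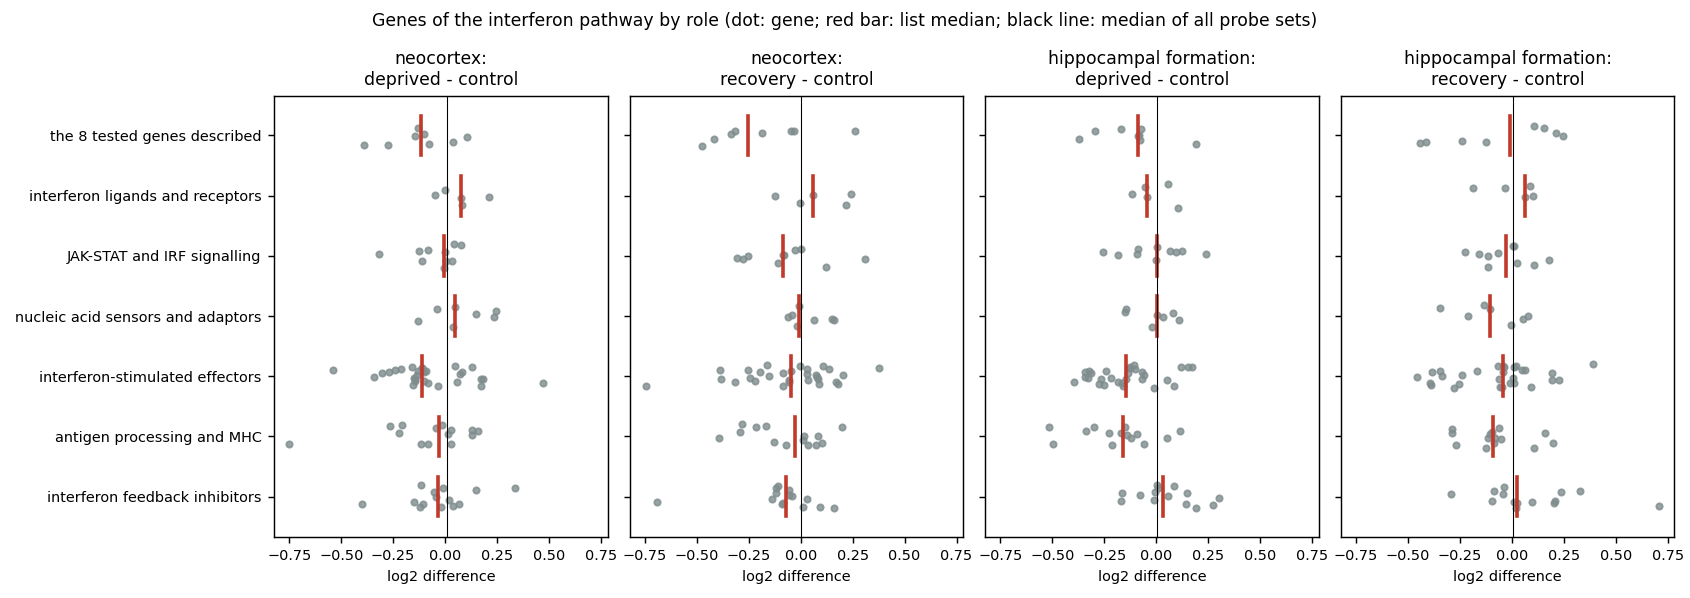
Log2 difference from control for each tested gene of the interferon pathway (dots), by role, with the median of each list (red bar) and of all probe sets (black line) in 4 comparisons. The effector medians lie below 0 in all 4 panels and no gene was called.

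Between the structures the stimulated effectors went mostly the other way from Mx1 and Irf9. Of the 29 effectors, 24 lay below the neocortex (52.8% of all probe sets did) and 6 were called lower in the hippocampal formation, 0 higher (background 10.5% lower). They included the membrane proteins that block viral entry, Ifitm1 (-1.15, SE 0.129), Ifitm2 (-0.54, SE 0.0762) and Ifitm3 (-0.50, SE 0.0665), and Slfn5 (-0.51, SE 0.0988), all with limma adjusted p from 0.00126 to 0.0127. Each of these 4 was lower in 6 of 6 animal pools, Ifitm1 with differences of -1.42 to -0.86. The class II molecules RT1-Da (-1.10), RT1-Ba (-0.76) and RT1-Bb (-0.66), with the invariant chain Cd74 (-0.74), were called lower as well (limma adjusted p 0.000997 to 0.0319). Of all 14 antigen processing and MHC genes, 8 lay lower and 6 higher. The 14 feedback inhibitors were split in the same way, with 0 called. The factors Irf8 (-0.62) and Irf3 (-0.26) and the RNA-editing enzyme Adar (-0.36) were called lower, and the receptor chain Ifngr2 was called higher (0.32, SE 0.0605). Markers of other cell types moved with this comparison: all 14 tested meningeal and fibroblast markers were called, 12 of them lower and 2 higher in the hippocampal formation (summed signal 2278 to 3510 against 4415 to 4980), and 4 of 14 endothelial markers were called lower and none higher. Microglia markers lay lower for 12 of 14, with 1 called, a higher one. In the direction of Mx1 and Irf9, oligodendrocyte markers lay higher in the hippocampal formation for 10 of 10 (2 called, median log2 difference 0.16) and astrocyte markers for 9 of 11 (2 called, median 0.11). Their part in these differences was not tested, and fewer cells of a type and less RNA per cell cannot be told apart in such pools.

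Marker lists also differed between the sleep states, with no single marker called (limma). The 4 tested red cell and leukocyte markers, of 17 on the array, summed to 1220 to 1368 in the neocortical recovery pools against 1954 to 2699 in control, and to 1228 to 1293 in the hippocampal recovery pools against 1799 to 3197. For 3 of the 4, both recovery pools lay below both control pools in each structure (background 12.1% and 9.87%), and 0 lay above. Microglia markers (14 tested) summed to 2543 to 2871 in the neocortical recovery pools against 2300 to 3220 in control, and to 2410 to 2898 in the hippocampal recovery pools against 2633 to 3178. In the hippocampal formation 13 of 14 microglia markers lay below control after recovery (median -0.12), where 48.1% of all probe sets did. Of these 14, 0 had both recovery pools below both control pools and 1 had both above. In the neocortex 8 of 14 lay below control after recovery (median -0.11), against 49.8% of all probe sets. There 10 of 14 lay below the deprived rats (median -0.11). The tested markers of these lists had already passed the filter on low mean signal, and none of them was under a signal of 1 on every array of a group. The markers below the filter were not examined for this. Beta-actin probes near the 3' end read 2.33 to 3.17 times those near the 5' end, a sign of how intact the RNA was, and the ratio was 2.83 and 3.17 in the neocortical recovery pools and 2.61 and 2.68 in control. In the hippocampal formation the beta-actin ratio was 2.33 and 2.38 in the recovery pools and 2.42 and 2.52 in control. The same ratio for GAPDH was 1.08 and 1.17 in the neocortical recovery pools and 1.08 and 1.12 in control. Hippocampal GAPDH ratios were 1.09 and 1.15 in the recovery pools and 1.17 and 1.15 in control. The part of these in the values of Irf7 and Ifit2 was not tested.

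Further lists differed beside the hippocampal effectors. Oligodendrocyte markers lay below control after deprivation for 9 of 10 (median -0.11), where 48.8% of all probe sets did. They lay above the deprived rats after recovery for 10 of 10 (median 0.15, against 49.8% of all probe sets). Both were the directions of the effectors. Their pools did not overlap for 2 of 10 in the first comparison and 3 of 10 in the second (background 9.33% and 11.8%). Their summed signal was 11953 to 16323 in control, 13158 to 14132 in deprived and 12194 to 16998 in recovery pools. Endothelial markers lay below control for 11 of 14 after deprivation, with sums of 1650 to 1656 against 1685 to 1766 in control and 1575 to 1591 in recovery. Meningeal and fibroblast markers lay below control for 10 of 14 after deprivation (median -0.15) and 11 of 14 after recovery (median -0.28). Of all probe sets, 48.8% and 48.1% did. Choroid plexus markers lay lower after recovery than after deprivation for 7 of 7 (median -0.93), with sums of 915 to 1868 in recovery and 1033 to 6487 in deprived pools. For 0 of these 7 did both recovery pools lie below both deprived pools (background 11.4%). Both recovery pools lay below both control pools for 4 of the 7, where 9.87% of all probe sets did. The same held for 7 of 14 meningeal and fibroblast markers and 6 of 14 endothelial markers. In these 3 lists 0 markers had both recovery pools above control. The part of these lists in the effector values was not tested either.

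The genes most like the 8 members over the 12 pools, after each structure's mean was removed, were Pcyt1b (r = 0.89), Itsn2 (0.88), Cbfa2t2 (0.86), Adgre1 (0.86), Eftud2 (0.85), P2ry12 (0.85), C1ql1 (0.84) and Smg8 (0.83), measured against the members' mean z-score. Adgre1 and P2ry12 are known markers of macrophages and microglia. Without the set 1 control pool of the neocortex, a choice made after seeing the data, the same correlations were between 0.38 (Smg8) and 0.70 (Adgre1), so the ranking rests largely on that pool. Among the members themselves Irf7 and Ifit2 were the pair of genes most alike (0.81), then Ifit2 and Isg15 (0.69 with the second Ifit2 probe set, 0.68 with the first). Irf7, Isg15 and both Ifit2 probe sets had their highest signal in that same control pool. These pairs were not recomputed without it.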

How the data were processed

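Biotin-labelled cRNA of pooled total RNA was hybridised to Affymetrix rat arrays, per the labels' protocols. The deposited values are probe set intensity on a linear scale, made with MAS5 per the submitters' processing notes. Its version and its detection calls are not given in the sources used here. The trimmed mean (2% at each end) was 100 on every array when rounded, and array medians ran from 32.1 to 37.1.

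Signals were raised to a floor of 1 and log2-transformed, 57 control probe sets were left out, technical arrays were averaged and the dimmest 40% of probe sets were left out, which kept 18625. A group's fit was limma (3.58.1, R 4.3.3) lmFit and eBayes with an intensity trend over 6 groups (6 residual and 3.78 prior degrees of freedom). Structure and interaction tests used the difference within the 6 animal pools (3 residual and 4.13 prior). A call is a Benjamini-Hochberg adjusted p under 0.05, and p-values measure the spread between pools of 6 rats. The probe set with the highest mean stands for a gene in counts. All 13 member probe sets matched RefSeq by gene identifier, and 0 symbols changed. Fits were tested on simulated data. Pathway genes were named by size and p within each list. The members, lists, rules and tests were chosen with earlier results of these data known. Figures used matplotlib 3.10.9 (Python 3.11.15).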

Additional observations from a re-analysis of the deposited data

Results flagged for a closer look

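In 6 cases both sets of rats moved one way in the neocortex and the other way in the hippocampal formation; limma called none of the 5 that were tested for this difference (adjusted p = 1.0), and Ifit3 was too dim to test. Values are hippocampal minus neocortical log2 differences between states. For deprived minus control they were -0.77 for Ifit3, -0.27 for Mx1 and 0.27 for the first Stat2 probe set. For recovery minus control, Isg15 gave 0.66, with -0.56 and -0.27 in the neocortex and 0.24 and 0.25 in the hippocampal formation. For recovery minus deprived, the first Ifit2 probe set gave 0.24 and Mx1 0.61. The second probe sets of Stat2 and Ifit2 did not split this way, as their 2 sets differed in sign within a structure. The share of such cases over all probe sets was not counted, so the 6 cases are descriptions only. With 2 pools a group, no pool could be tested as an outlier.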

How the results depend on the processing

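With the set of rats as a replicate block, calls over all probe sets went from 0 to 2 for neocortical deprived minus control, to 1 for neocortical recovery minus deprived, and to 2 for the structure difference in recovery minus deprived; for hippocampal formation minus neocortex they went from 3700 to 8006. At an unadjusted p under 0.05 (limma), the set block took the counts from 207 to 1070 for neocortical deprived minus control. They went from 169 to 849 for neocortical recovery minus deprived and from 298 to 1082 for that structure difference. The main fit thus gave fewer small p-values than the fit with the set in it. Taking all 18 arrays with the pool as a random block gave 2 calls for neocortical deprived minus control. Leaving out 1 animal pool gave 1626 (set 1 deprived) to 4492 calls between structures. Calls among the member probe sets between structures were 3, and 4 with the set of rats as a block or a floor of 16, 2 from either technical array alone or without the intensity trend, 1 with no filter, and 1 to 2 when 1 animal pool was left out. Mx1 kept its call under all 14 alternatives (log2 difference 1.003 to 1.135), and the Irf9 probe sets under 5 and 7 of 14. Of the 72 member differences between states, 50 kept their sign under every alternative that left out no pool and 30 under all, none was called, and the lowest adjusted p was 0.636. The set numbers are shared by the groups without the labels stating a common day: deviations of same-numbered pools correlated at 0.539 to 0.682 within a structure and 0.182 to 0.387 between them. Signal near the filter level limits Ifit3, neocortical Mx1 and the second Mx2 probe set.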
